A study of Danio rerio with 12 samples.

Results

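The comparison described here is the development of control embryos between 6 h and 24 h after fertilization, measured on Agilent 1-colour arrays hybridised with RNA of whole zebrafish embryos. It holds 3 arrays of embryos at 24 h and 3 arrays of embryos at 6 h, which are 6 of the 12 arrays of the series. Its members are the non-control probes whose spots passed the scanner software's test of being well above background on every array of either time. They were 35170 of 43603 probes, and the probes with a gene name represented 12521 genes. All embryos were of the wild-type AB strain and had been injected with a control morpholino, at 0.25 to 1.0 pmol and at the 1-4 cell stage, and then kept at 28.5 °C. A morpholino is an antisense oligonucleotide that blocks translation or splicing of a transcript, and a control morpholino is one without a chosen zebrafish target. Each array held the amplified RNA, labelled from 100 ng, of a pool of 18 to 35 whole embryos. The other 6 arrays held embryos of both times that had received PCSK7 and p53 morpholinos together, and they enter only the last comparison. No group without an injection was used here. An effect of injection that differs between the times therefore cannot be told apart from development.

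At 6 h a zebrafish embryo is a gastrula. It carries RNA that the mother laid down in the egg, beside the first RNA made by its own genome, and the zygotic genome takes over as maternal RNA is cleared. Nodal, BMP, Wnt and FGF signals then divide the cell sheet into germ layers and axes. By 24 h the body plan is laid out: the somites have formed, the tail is extended, the heart begins to beat, the brain is divided into regions, and blood, lens, notochord and pigment cells are differentiating.

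Each slide of the control embryos held 1 array of each time, both from the same scan, so the times were compared within slides. Levels below are log2 signals relative to the 75th-percentile probe of the same array, so that a level of 0 is a signal as bright as that probe. A change is the 24 h level minus the 6 h level, given as the mean over 3 slides with its standard error (SE), and limma tested it with a term for the slide. Adjusted p-values (Benjamini-Hochberg) cover all 35170 probes, and a gene is its brightest probe over the 6 arrays. Rose and fell mean an adjusted p under 0.05. The 75th-percentile signal itself was 697 to 994 on the 24 h arrays and 404 to 513 on the 6 h arrays, and 76.9% to 81.7% of spots at 24 h and 67.6% to 68.6% at 6 h were well above background. No spot (0) was saturated. Arrays correlated at 0.995 to 0.996 within 24 h and at 0.994 to 0.995 within 6 h, and at 0.605 to 0.617 across the times. Nothing in the labels says that the pools came from separate clutches, and the p-values reflect how much these pools differ from each other. In whole embryos, more cells of a type and more RNA per cell cannot be told apart.

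Most of the transcriptome differed between the 24 h and the 6 h embryos. Of the 12521 genes, 5945 (47.5%) rose, 5373 (42.9%) fell and 1203 did not pass the test. Since 90.4% of genes (and 90.1% of all kept probes) passed, a call alone says little about any gene group, and groups are described below by members that changed by at least 2-fold. That held for 4581 genes that rose (36.6%) and 3686 that fell (29.4%). In the counts of gene lists and families below, rose and fell mean such a change of at least 2-fold. Those counts are to be read against these shares. More genes fell than rose by at least 2-fold under 4 alternatives: 3116 rose and 3321 fell with normexp background correction, 4132 and 4193 with quantile normalization, 3816 and 4055 in the authors' deposited table, and 2768 and 3302 with only probes above background on all 6 arrays. The levels of the 3 arrays at 24 h and the 3 at 6 h did not overlap for 11621 genes (92.8%). A lack of overlap in a gene named below is therefore the usual case and adds nothing for genes picked by the size of their change. By this scaling 3259 genes rose and 1726 fell by at least 4-fold, and 1549 rose and 430 fell by at least 16-fold. The median gene changed by 0.13 on the log2 scale, and the median size of a change was 1.57. Of the tested genes 10174 were well above background on all 6 arrays. A further 1524 were above background on all 3 arrays at 24 h and on 0 of 3 at 6 h, against 203 with the opposite pattern. Another 417 were above background on 3 of 3 arrays at 24 h and on 1 or 2 of 3 at 6 h, and 203 the other way round. All these genes were kept through the arrays of a single time, so the direction of their change was largely set by the filter. This holds for many members of the tissue lists below. For all these genes only a lower bound of the fold is given, written as at least N-fold, which sets the dim side at the faintest signal that counts as above background on its arrays, or at its own signal where that is higher. With such genes at their bounds, 4340 genes rose and 3680 fell by at least 2-fold. Counts below are of measured signals, while medians of gene lists have these genes at their bounds, and the median over all genes was then 0.11. With normexp background correction, another way to remove local background from spot signals, the median change lay nearer to 0 than the median given here by more than 1.5 times in 28 of 49 gene lists and had the opposite sign in 4. With only probes above background on all 6 arrays the numbers were 18 and 5. List medians under all alternatives are of measured changes without bounds. They are thus an unlike measure to the medians with bounds beside which they are set, here and below.

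**Figure D1:**
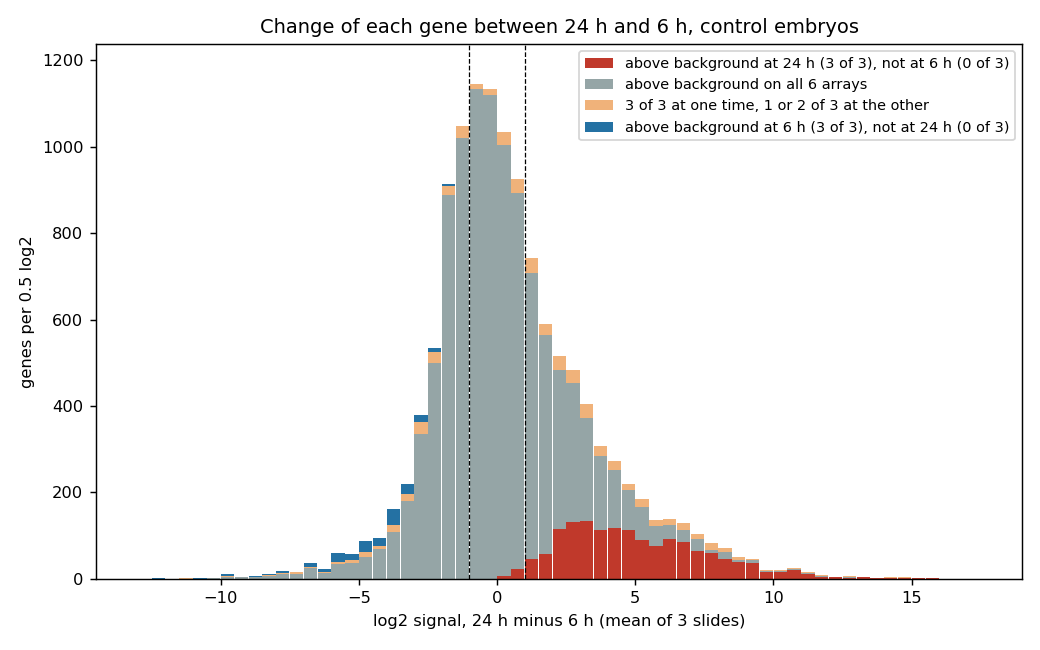
Number of genes (vertical axis) by log2 change between 24 h and 6 h (horizontal axis, bins of 0.5), stacked by the arrays on which the gene was well above background; dashed lines mark a 2-fold change. The right tail is longer than the left and is filled in large part by the 1524 genes that were above background at 24 h only, while the 203 genes above background at 6 h only lie in the left tail.

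Globins, muscle proteins and lipid carriers led the rises of genes measured above background on each of the 6 arrays. The embryonic beta globin hbbe3 measured 7.89, 7.68 and 7.91 on the 24 h arrays, against -5.42, -5.31 and -5.39 on the 6 h arrays, a change of 13.20 ± 0.10 or 9422-fold (adjusted p = 4.28e-06, limma). The embryonic alpha globin hbae1.1 measured 8.28, 8.11 and 8.36 on the 24 h arrays, against -3.52, -3.56 and -3.90 on the 6 h arrays, a change of 11.91 ± 0.14. For both globins every 24 h array was far above its 75th percentile and every 6 h array far below it, with no overlap. The myosin light chain gene myl10 changed by 12.89 ± 0.15, the cardiac-type alpha actin actc1b by 11.38 ± 0.11, the parvalbumin pvalb9 by 11.18 ± 0.27 and the troponin I gene tnni2b.1 by 11.10 ± 0.07. The glycolytic aldolase aldoab rose by 12.62 ± 0.14. The apolipoproteins apoa1a and apobb.1, which carry lipid out of yolk and gut, rose by 12.56 ± 0.15 and 10.33 ± 0.12. Others of the 15 largest rises were the cartilage and notochord collagen col2a1a (10.36 ± 0.10), the annexins anxa1c (10.25 ± 0.21) and anxa1d (9.71 ± 0.18), the epithelial membrane protein emp2 (10.62 ± 0.19), the S100-type gene icn2 (9.66 ± 0.09) and si:dkey-26g8.5, which was 4095-fold higher.

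Other genes were above background on every 24 h array and on 0 of 3 arrays at 6 h. The hatching enzyme he1.1, a protease that dissolves the egg envelope, measured 6.65, 6.84 and 6.81 on the 24 h arrays, which makes it at least 7243-fold higher. The bounds were at least 11447-fold for the myosin light chain myl13, at least 6190.4-fold for the muscle calcium pump atp2a1, at least 5252-fold for the fast muscle myosin light chain mylpfa and at least 3922-fold for the parvalbumin pvalb2. The liver protease inhibitor serpina1 was at least 5900.0-fold higher, the apolipoprotein apoa4b.1 at least 5133-fold, the peroxisomal oxidase hao1 at least 2369-fold, the fast myosin heavy chain myhz1.1 at least 3863-fold and zgc:174855 at least 11302-fold.

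The largest falls were in genes of the egg and of the embryo's first transcription. The pluripotency factor nanog measured -3.55, -3.31 and -3.36 on the 24 h arrays, against 6.72, 6.74 and 6.66 on the 6 h arrays, so that it fell by 10.12 on the log2 scale or was 1112-fold lower at 24 h (adjusted p = 4.28e-06, limma). The linker histone of the egg, h1m, measured -4.27, -4.27 and -4.53 on the 24 h arrays, against 5.46, 5.53 and 5.67 on the 6 h arrays. Both genes were far above the 75th percentile on every 6 h array and far below it on every 24 h array. Others of the 15 largest falls were the zinc finger RNA-binding gene cth1 (-9.68 ± 0.08), ccnp (-9.50 ± 0.13), the claudin cldnd (-9.47 ± 0.13), the egg kinase wee2 (-9.22 ± 0.08), the cyclins ccnb1l (-9.09 ± 0.14) and ccna1 (-8.55 ± 0.15), the poly(A)-binding protein of the egg pabpc1l (-9.01 ± 0.09), the carbonic anhydrase ca7 (-8.78 ± 0.14) and the 5S rRNA transcription factor gtf3ab (-8.65 ± 0.12). The rest were si:dkeyp-114g9.1, si:rp71-45k5.2, zgc:113424 and zgc:56231, with changes of -9.93, -9.90, -9.27 and -8.50. Among genes above background at 6 h only, the homeobox gene mxtx2, which acts in the yolk syncytial layer, measured 3.83, 3.94 and 3.87 on the 6 h arrays and was at least 1481-fold lower at 24 h. The RNA-binding genes rbm46, larp6b and patl2 were at least 474-fold, at least 309.7-fold and at least 401-fold lower, and the link protein gene hapln4 and the formin gene fhdc3 at least 801-fold and at least 527-fold. The bounds were at least 149-fold for macrod1, at least 245-fold for zgc:163014 and at least 242-fold for zgc:162592.

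**Figure D2:**
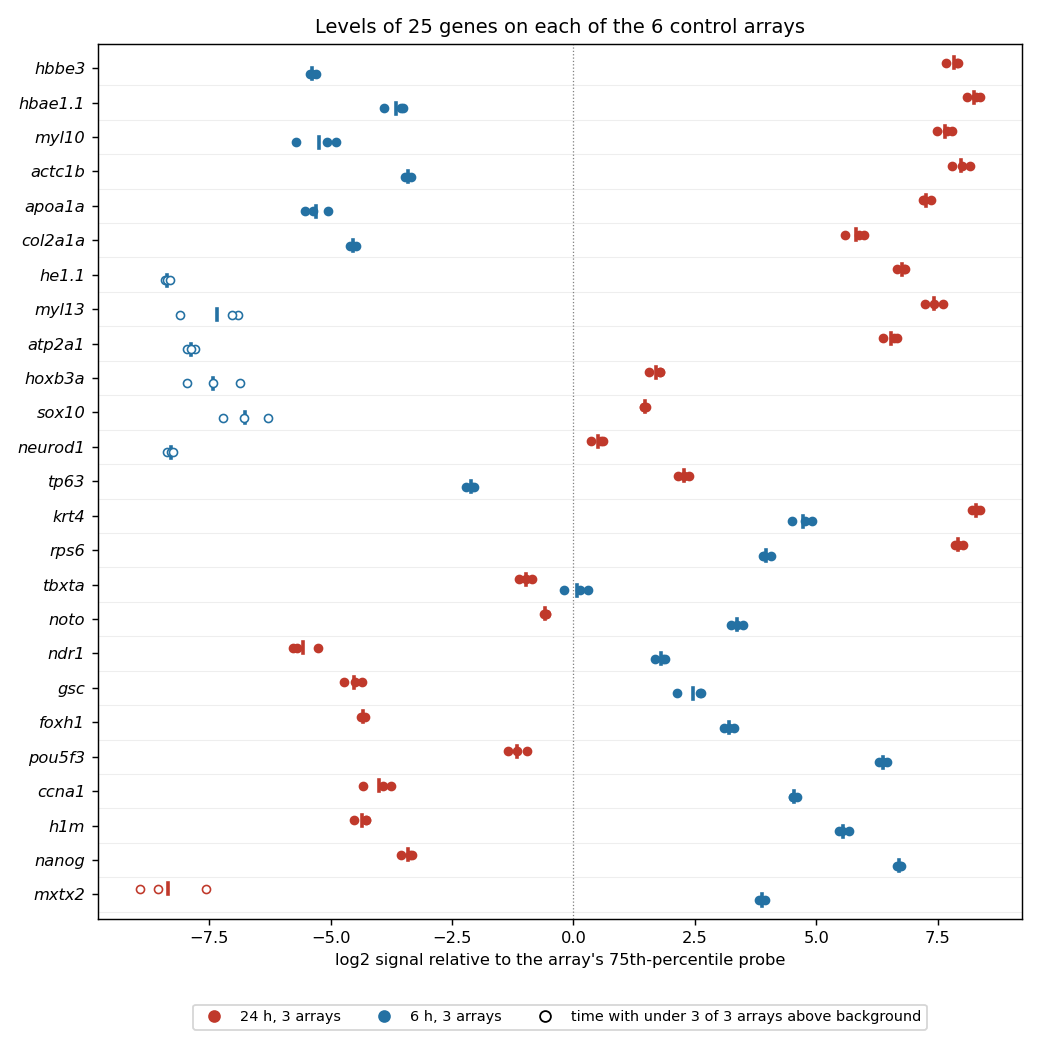
Log2 signal relative to the array's 75th-percentile probe (horizontal axis) for 25 genes (rows) on each control array, with 24 h above 6 h in every row and a vertical tick at the mean of 3 arrays; open points mark a time at which fewer than 3 of 3 arrays were well above background. In every row the points of one time lie together and apart from those of the other, with red to the right from hbbe3 to rps6 and blue to the right from tbxta to mxtx2; levels are to be compared within a row, since probes differ in brightness.

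Transcripts of the egg fell almost throughout. In a list of egg and oocyte transcripts, 40 of 42 tested members fell by at least 2-fold and 1 rose, which is a share of 95.2% that fell, against 29.4% of all genes. The RNA-clearing adaptor btg4 measured -5.58, -6.02 and -5.16 on the 24 h arrays, against 2.00, 2.11 and 2.78 on the 6 h arrays, and the zygote arrest gene zar1 measured -2.76, -2.85 and -2.60 on the 24 h arrays, against 1.36, 1.31 and 1.46 on the 6 h arrays. Their 24 h arrays all lay below their 6 h arrays. The egg nucleoplasmin npm2b and its relative npm2a changed by -6.57 and -7.01. The member that rose was the RNA-binding protein ybx1 (2.04 ± 0.10), which the later embryo also makes in most cells. The brightest probe of grip2a gave a change of 0.00 (adjusted p = 0.989, limma), while its other probe was called lower.

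Germ plasm genes, which in zebrafish are laid down by the mother and kept in the primordial germ cells, fell in 16 of 19 members and rose by at least 2-fold in 0 (median -5.12). The translation regulator dazl fell by 7.38, the helicase ddx4 (vasa) by 5.89, the tudor gene tdrd7a by 6.58, dnd1 by 5.48, the piRNA-binding piwil1 by 4.65 and the translation repressor nanos3 by 3.47. Despite these falls, 19 of 19 members were still above background on all 3 arrays at 24 h. The chromatin remodeller hells, whose use is not limited to germ cells, changed by 0.66 ± 0.14.

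Factors that open the zygotic genome fell unevenly. Of 24 pluripotency and genome activation factors, 13 fell and 5 rose by at least 2-fold (median -1.29). The POU factor pou5f3, a partner of nanog in genome activation, measured -1.35, -1.17 and -0.96 on the 24 h arrays, against 6.38, 6.46 and 6.30 on the 6 h arrays, a change of -7.54 ± 0.12. The SoxB1 factor sox19b, the maternal member of its family, fell by 2.68. In contrast sox2, the SoxB1 factor of neural progenitors, rose by 7.44 ± 0.23. Other rises were in her3 (3.39 ± 0.13) and klf4 (3.30 ± 0.13), and vsx1 was at least 8.21-fold higher.

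Genes of the Nodal pathway and the organizer were lower at 24 h in most cases. Of 47 members 27 (57.4%) fell and 12 (25.5%) rose by at least 2-fold, against 29.4% and 36.6% of all genes (median -1.07). The Nodal ligand ndr1 measured -5.69, -5.77 and -5.26 on the 24 h arrays, against 1.85, 1.88 and 1.69 on the 6 h arrays, so that each 24 h array was lower than any 6 h array. The Nodal effector foxh1 fell by 7.54. The organizer homeobox gene gsc changed by -6.98 ± 0.16, the dorsal BMP family ligand admp by -7.61 ± 0.12, and the endoderm inducer mixl1 by -6.42 ± 0.12, and the ligand ndr2 was at least 34.5-fold lower. The Nodal partner gdf3 fell by 5.69, and the endoderm gene sox32 was at least 142-fold lower. The axial mesoderm factors differed in size: noto, which keeps notochord fate, fell by 3.95, and tbxta, which the notochord and tail bud keep using, fell by 1.07. Rises in the same list were those of the paraxial genes msgn1 (4.46 ± 0.11) and tbx16l (4.26 ± 0.11), of tbx6 (at least 70.7-fold) and of hhex (3.59 ± 0.13), which marks liver and blood vessel precursors.

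Genes of the BMP pathway went both ways. Of 42 BMP and ventral genes 20 (47.6%) rose and 13 (31.0%) fell by at least 2-fold, against 36.6% and 29.4% of all genes (median 0.61). The ventral homeobox genes vox, vent and ved, which repress the organizer in the gastrula, fell by 3.12, 4.03 and 4.17. The ligand bmp7a was at least 18.5-fold lower and the secreted inhibitor szl at least 6.82-fold lower, whereas the ligand bmp4 rose by 1.77 ± 0.14. The distal-less genes dlx4a and dlx5a, used in face, ear and fin, were at least 85.4-fold and at least 249.8-fold higher, and the inhibitory smad6b rose by 5.85 ± 0.09. The tail bud gene eve1 changed by 0.23 ± 0.27 (adjusted p = 0.459, limma). It measured -1.65, -1.70 and -1.47 on the 24 h arrays and -1.42, -1.63 and -2.45 on the 6 h arrays, and the groups overlapped.

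Zinc finger genes of the znf series are a large family of transcription factors. By at least 2-fold, 44 of 87 (50.6%) fell and 15 (17.2%) rose, against 29.4% and 36.6% of all genes (median -1.04). The largest fall was that of znf326 (-6.55 ± 0.08), followed by znf710a (-3.64 ± 0.08). Among the rises were znf488 (3.70 ± 0.08) and znf703 (2.69 ± 0.09).

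**Figure D3:**
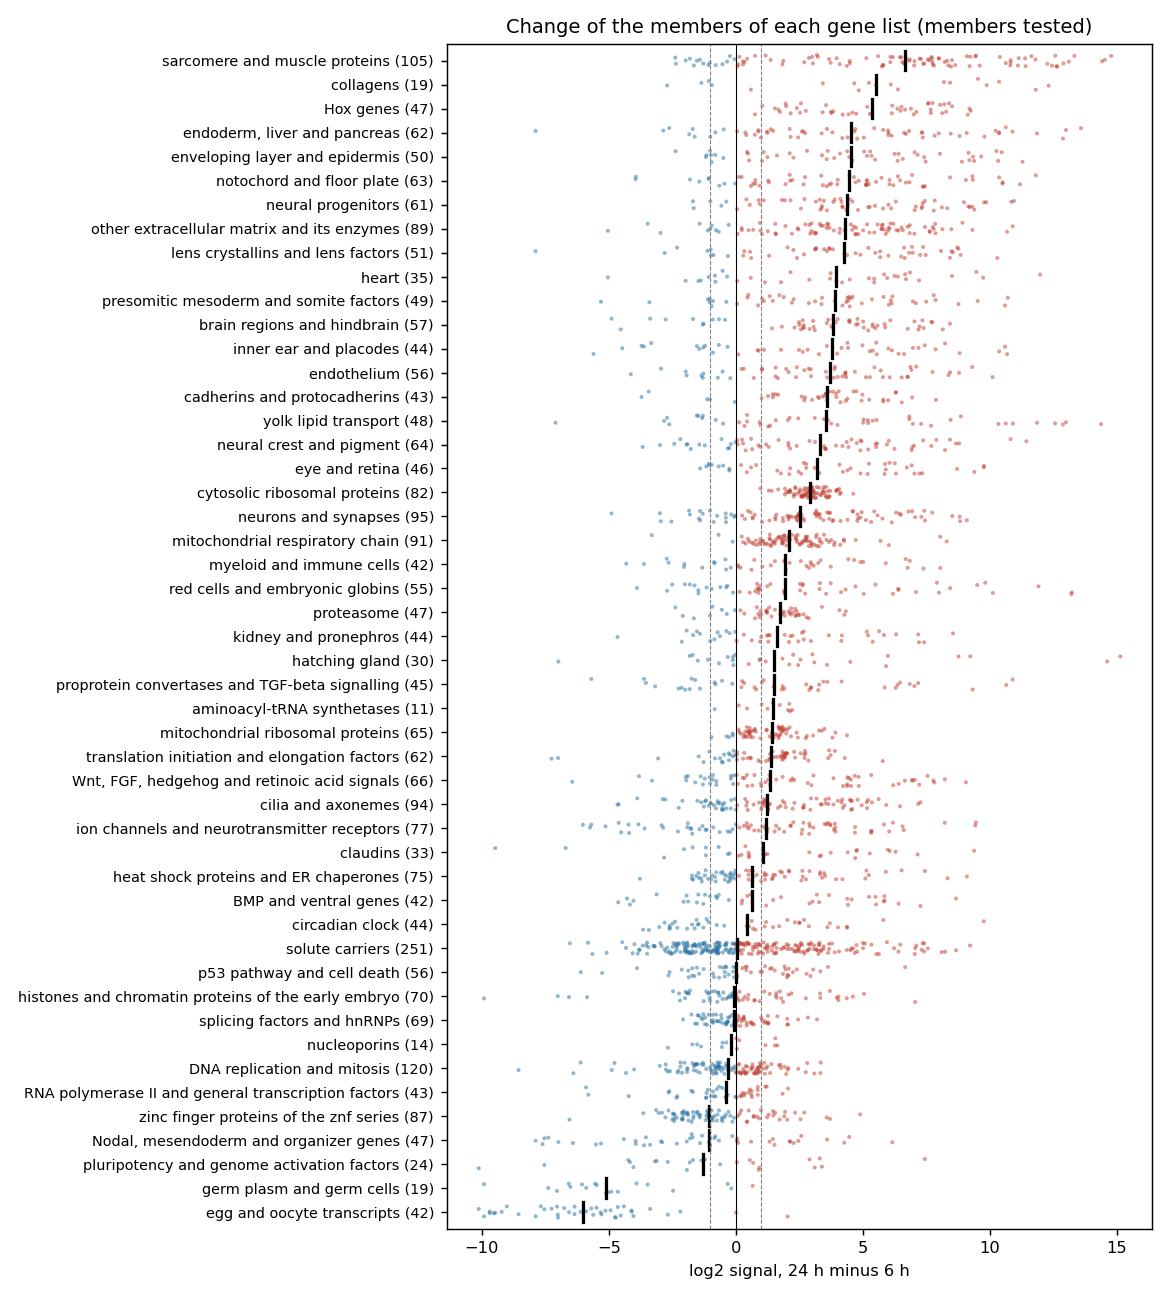
Log2 change between 24 h and 6 h (horizontal axis) of every tested member (points, red above 0 and blue below) of 49 gene lists (rows, with the number of tested members), with a black bar at the median of the measured changes and dashed lines at 2-fold. Egg and germ plasm lists lie at the bottom, almost wholly left of 0, and muscle, collagen and Hox lists at the top. Cytosolic ribosomal genes form a tight cluster to the right of 0. Most respiratory chain and proteasome genes also lie right of 0, with wider ranges and some members left of it.

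Cell cycle genes showed no common direction. Of 120 genes of DNA replication and mitosis, 35 (29.2%) fell and 20 (16.7%) rose by at least 2-fold, against 29.4% and 36.6% of all genes (median -0.31), and the other 65 moved by less or did not pass. The mitotic cyclins ccnb1 and ccnb2 fell by 2.76 and 4.89. The mitotic kinase cdk1 rose by 2.81 ± 0.09. In the replicative helicase, mcm2 and mcm6 rose by 1.98 ± 0.10 and 3.08 ± 0.12, while the maternal paralog mcm6l fell by 6.40. The cyclin ccnd2a and the inhibitor cdkn2c, which act at the entry to S phase, rose by 3.33 ± 0.11 and 3.34 ± 0.09, and the replication clamp pcna by 0.89 ± 0.07.

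Several gene families held an egg form that fell beside a relative that fell less or rose. Cyclin ccna1 fell by 8.55 and ccna2, the somatic cyclin A, by 2.29. The histone mRNA-binding slbp2 was at least 302-fold lower, and slbp changed by -0.39 ± 0.07. The poly(A)-binding pabpc1l fell by 9.01 and pabpc1a rose by 1.14 ± 0.07. The cap-binding eif4e1b fell by 7.00, and its relative eif4e1c changed by -0.12 ± 0.07 (adjusted p = 0.191, limma). Nucleoplasmin npm2b fell by 6.57, and npm1a, the nucleolar form, changed by 0.35 ± 0.10, a direction that quantile normalization and the authors' deposited table turn round. The survivin birc5b fell by 6.11, and the probes of birc5a were called in both directions. The zygote arrest genes zar1 and zar1l both fell (-4.11 and -7.25), and in the SoxB1 family sox19b fell by 2.68 where sox19a rose by 0.89 ± 0.09. Among cadherins, the epithelial cdh1 fell by 1.02 and the neural cdh2 rose by 4.12 ± 0.11. The apolipoprotein apoeb, made in the yolk layer from gastrulation, rose by 2.11 ± 0.10, and apoea was at least 405-fold higher. The keratins krt4 and krt5 of the skin both rose, by 3.57 ± 0.13 and 4.46 ± 0.17. The endothelial claudin cldn5b rose by 5.27 ± 0.10, while the probes of cldne, a claudin of the enveloping layer, disagreed.

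**Figure D4:**
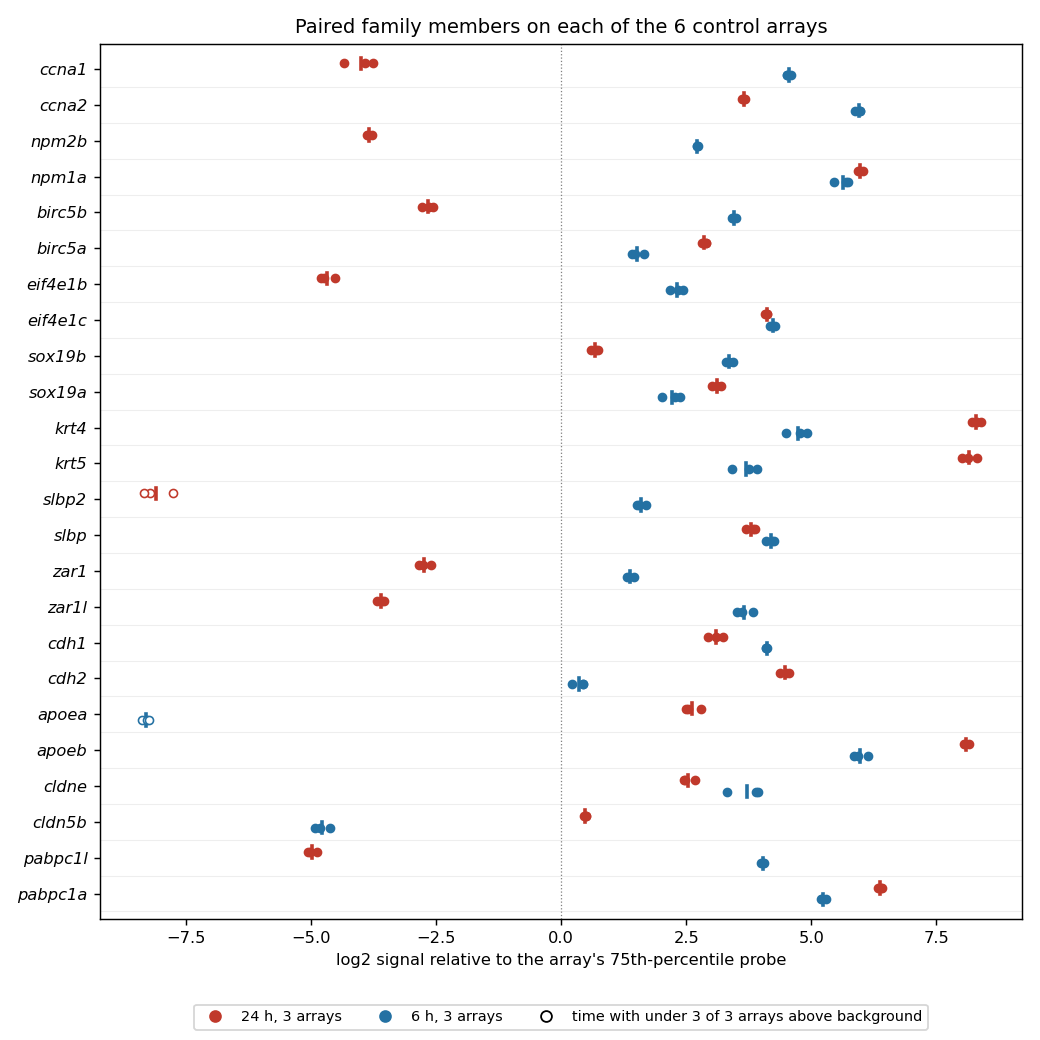
Log2 signal relative to the array's 75th-percentile probe (horizontal axis) of 24 genes that form 12 pairs of related genes (rows in pairs, top to bottom), with 24 h above 6 h in each row, ticks at the means of 3 arrays and open points as in the plot of 25 genes. The egg forms ccna1, npm2b, birc5b, eif4e1b, slbp2, zar1, zar1l and pabpc1l have their 24 h points far to the left of their 6 h points; eif4e1c and slbp have both times close together.

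Most muscle genes were higher at 24 h. Of 105 sarcomere and muscle proteins 82 rose and 10 fell by at least 2-fold (median 5.74), and 36 members were above background on 0 of 3 arrays at 6 h. The skeletal actin acta1b measured 6.53, 6.31 and 6.50 on the 24 h arrays, against -2.75, -2.90 and -2.60 on the 6 h arrays, a change of 9.20 ± 0.08, and myl10 measured 7.69, 7.50 and 7.79 on the 24 h arrays, against -4.90, -5.72 and -5.08 on the 6 h arrays. The 24 h arrays lay above the 6 h arrays for both. The fast troponin T gene tnnt3a was at least 176-fold higher. The brain-type creatine kinase ckbb fell by 2.36. For the tropomyosin tpm1 the brightest probe fell while another probe rose, with changes of -2.91 to 10.04 among its 3 probes. Of 49 presomitic and somite factors 37 rose and 5 fell by at least 2-fold (median 2.78). The myogenic factors myod1 and myog were at least 229.5-fold and at least 482-fold higher, and myf5 rose by 3.90 ± 0.14. The gastrula factor tbx16 fell by 5.31 and the segmentation gene her11 by 3.41.

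Hox genes, which give position along the body axis, rose almost without exception. 46 of 47 rose by at least 2-fold and 0 fell (median 4.66). The remaining gene, hoxc6a, which was singled out after its values were seen, changed by 0.75. At 6 h, 26 of 47 were above background on 0 of 3 arrays and 15 on 3 of 3, and at 24 h all 47 were above it on 3 of 3. Hox genes not above background on every 6 h array were kept through their 24 h arrays, so their rise was largely set by the filter. The hindbrain gene hoxb3a measured 1.77, 1.56 and 1.79 on the 24 h arrays and was at least 217-fold higher. The bounds were at least 84.7-fold for hoxb1b, at least 96.4-fold for hoxa2b, at least 120.3-fold for hoxb5b, at least 25.3-fold for hoxa9b and at least 150.2-fold for hoxb10a. By position, 14 of 14 genes of groups 1 to 4, which act in hindbrain and neck, rose by at least 2-fold, as did 11 of 12 genes of groups 5 to 8 and 21 of 21 of groups 9 to 13, which act in trunk and tail.

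Most genes of extracellular matrix and notochord were higher at 24 h. Of 19 collagens 14 rose and 3 fell by at least 2-fold (median 4.80), and of 89 other matrix genes 72 rose and 6 fell (median 3.68). The notochord and cartilage collagen col2a1a measured 5.98, 5.60 and 5.88 on the 24 h arrays, against -4.49, -4.54 and -4.59 on the 6 h arrays. Its 24 h arrays were far above its 6 h arrays. The fibrillar collagens col1a1a and col1a2 were at least 504-fold and at least 2027-fold higher, and col9a1b at least 1222-fold. The collagen-binding matrix protein sparc was at least 912-fold higher, the collagen chaperone serpinh1b rose by 7.44 ± 0.19, fibronectin fn1b by 6.02 ± 0.11 and periostin postnb by 5.98 ± 0.11. The hyaluronan synthase has2 fell by 5.04. For col4a5 and col11a1a the probes were called in both directions. Of 63 genes of notochord and floor plate 47 rose and 6 fell by at least 2-fold (median 3.35). The hedgehog ligand shha, made by both tissues, measured 2.56, 2.31 and 2.36 on the 24 h arrays and was at least 350.0-fold higher, and the midkines mdka and mdkb were at least 1284-fold and at least 594-fold higher. The organizer BMP antagonist chrd fell by 3.94.

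Most skin genes were higher at 24 h and already measurable at 6 h. Of 50 genes of the enveloping layer and epidermis 39 rose and 4 fell by at least 2-fold (median 4.13), and 37 were above background on 3 of 3 arrays at 6 h. The keratin krt4 measured 8.21, 8.30 and 8.38 on the 24 h arrays, against 4.77, 4.91 and 4.49 on the 6 h arrays, and krt5 measured 8.01, 8.13 and 8.31 on the 24 h arrays, against 3.76, 3.92 and 3.41 on the 6 h arrays. The basal layer factor tp63 measured 2.16, 2.27 and 2.37 on the 24 h arrays, against -2.21, -2.05 and -2.09 on the 6 h arrays, a change of 4.38 ± 0.08. None of these groups of arrays overlapped, and krt4 was well above the 75th percentile at both times. The secretory pathway gene agr1 was at least 1332-fold higher, the annexin anxa2a at least 1122-fold and the carbonic anhydrase ca2 at least 651-fold. The hatching gland list held 30 genes, of which 16 rose and 5 fell (median 1.07). The hatching enzyme he1.2 was at least 14521-fold higher, and the cathepsin ctslb rose by 9.22 ± 0.09. The gland's regulator prdm1a was at least 329.8-fold higher, and the factors klf17 and foxa3, active in the early prechordal tissue, fell by 1.81 and 1.70.

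Claudins, the proteins that seal tight junctions, included large changes in both directions. Of 33 tested, 17 (51.5%) rose and 7 (21.2%) fell by at least 2-fold, against 36.6% and 29.4% of all genes (median 1.05). The gastrula claudin cldnd measured -2.14, -1.99 and -2.29 on the 24 h arrays, against 7.19, 7.32 and 7.48 on the 6 h arrays. Another, cldng, measured -0.43, -0.83 and -0.55 on the 24 h arrays, against 6.04, 6.02 and 6.23 on the 6 h arrays. Both were lower on every 24 h array than on any 6 h array. Claudins cldn1 and cldni, in contrast, rose by 6.28 ± 0.11 and 7.15 ± 0.16, and cldn3c was at least 571-fold higher. Among cadherins and protocadherins 37 of 43 rose and 4 fell by at least 2-fold (median 2.69, but 0.58 with normexp), with cdh17, the cadherin of the pronephros, at 6.30 ± 0.14 and pcdh19 at least 235-fold higher.

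Most red cell and myeloid genes were higher at 24 h. Of 55 red cell genes 32 (58.2%) rose and 9 (16.4%) fell by at least 2-fold, against 36.6% and 29.4% of all genes (median 1.89). All 5 tested embryonic globin genes rose, with hbae3 at least 9217-fold and hbbe2 at least 687-fold higher. The erythroid master factor gata1a was at least 52.8-fold higher, and alas2, which starts heme synthesis in red cells, measured 0.28, 0.18 and 0.50 on the 24 h arrays, against -3.60, -3.08 and -3.54 on the 6 h arrays, a change of 3.73 ± 0.18. The zinc finger gene blf and the cofactor zfpm1 fell by 3.89 and 2.01. In the myeloid and immune list 25 of 42 rose and 7 fell (median 1.04, but 0.09 with normexp background correction and 0.10 with only probes above background on all 6 arrays). The macrophage lysozyme lyz was at least 30.7-fold higher and the myeloid factor spi1b at least 7.53-fold. The chemokine receptor cxcr4b, which guides migrating cells in the gastrula and later, fell by 3.62.

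Most heart and vessel genes were higher at 24 h. Of 35 heart genes 24 rose and 5 fell by at least 2-fold (median 2.80, but -0.44 over the 16 members with probes above background on all 6 arrays). Of 56 endothelial genes 43 rose and 7 fell (median 2.66). The heart myosin myl7 measured 2.34, 2.48 and 2.09 on the 24 h arrays and was at least 328-fold higher, and cmlc1, another heart myosin light chain, was at least 872-fold higher. The heart field factors nkx2.5 and nkx2.7 were at least 6.98-fold and at least 99.3-fold higher, and gata5, active in heart and endoderm precursors from gastrulation on, changed by 0.05 ± 0.08 (adjusted p = 0.569, limma). In vessels, the endothelial regulator etsrp was at least 64.5-fold higher, fli1 at least 85.7-fold, the secreted egfl7 at least 181-fold and the lectin clec14a at least 246-fold. The junction cadherin cdh5 rose by 1.56 ± 0.12. The VEGF receptor kdrl was at least 1.74-fold higher by this scaling and called lower with normexp background correction.

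Most genes of the nervous system were higher at 24 h. Of 61 genes of neural progenitors 51 rose and 3 fell by at least 2-fold (median 4.16), of 57 brain region genes 47 rose and 7 fell (median 3.58), and of 95 genes of neurons and synapses 69 rose and 11 fell (median 2.46). The progenitor factor sox2 measured 2.64, 2.57 and 2.46 on the 24 h arrays, against -4.20, -4.95 and -5.49 on the 6 h arrays. The 24 h arrays were all above the 75th percentile and the 6 h arrays all below it. The glial filament gfap was at least 550.4-fold higher, the Notch target her4.1 at least 193-fold and the Notch ligand dla at least 86.9-fold. Regional factors rose in forebrain and midbrain (otx2b by 5.03 ± 0.08, emx3 by 3.93 ± 0.15), the midbrain-hindbrain boundary (pax2a, at least 39.9-fold) and hindbrain (egr2b, at least 63.6-fold). The gastrula genes her5, hesx1 and eomesa changed by -4.89, -2.76 and -3.38, and the progenitor genes sox11b and zic2b fell by 1.66 and 1.69. In neurons the growth cone protein gap43 measured 1.52, 1.50 and 1.35 on the 24 h arrays, against -5.14, -5.06 and -4.90 on the 6 h arrays, a change of 6.49 ± 0.11. The vesicle fusion gene snap25a rose by 3.67 ± 0.08, the RNA-binding elavl3 was at least 26.4-fold higher and the proneural neurod1 at least 94.5-fold. Stathmin stmn4 was at least 29.8-fold lower, where stmn2b rose by 3.32 ± 0.09.

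Most genes of eye, lens and ear were higher at 24 h. Of 46 eye genes 33 rose and 4 fell by at least 2-fold (median 3.06), of 51 lens genes 39 rose and 4 fell (median 3.58), and of 44 ear and placode genes 29 rose and 9 fell (median 3.49). The eye factors pax6a and rx1 were at least 183-fold and at least 98.2-fold higher. The cone opsin opn1sw2 fell by 1.17. The crystallins crygn2 and cryba1b, which fill the lens fibres, rose by 4.26 ± 0.11 and were at least 281-fold higher, and 22 of 28 gamma crystallin genes and 8 of 10 beta crystallin genes rose by at least 2-fold. An exception was the gamma crystallin crygmxl1, at least 79.3-fold lower. In the ear list six1b of the placodes was at least 376-fold higher, and stm, the otolith protein starmaker, fell by 3.33.

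Neural crest and pigment genes rose in 41 of 64 cases and fell in 9 (median 2.35). The crest factor sox10 measured 1.45, 1.46 and 1.50 on the 24 h arrays and was at least 184-fold higher. The melanin pathway gene tyrp1b was at least 422-fold higher, the pterin synthesis gene gch2 of yellow pigment cells at least 749-fold, and the melanosome protein pmela rose by 6.92 ± 0.09. The tyrosinase gene tyr, which catalyses the first step of melanin synthesis, changed by -0.26 ± 0.08 and stayed low, at -4.44, -4.18 and -4.21 on the 24 h arrays, against -4.10, -3.99 and -3.95 on the 6 h arrays.

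Endoderm, liver and yolk genes were mostly higher at 24 h. Of 62 endoderm, liver and pancreas genes 46 rose and 7 fell by at least 2-fold (median 3.28), and of 48 genes of yolk lipid transport 32 rose and 8 fell (median 2.04). The apolipoprotein apoa1a measured 7.19, 7.21 and 7.36 on the 24 h arrays, against -5.05, -5.36 and -5.52 on the 6 h arrays. The groups were far apart, as given with the 15 largest rises. The apolipoprotein apoa2 was at least 6906-fold higher, and the fatty acid binding proteins fabp1b.1 and fabp2 at least 7465-fold and at least 3571-fold. Insulin ins rose by 4.67 ± 0.22, while its paralog insb, which is expressed from the early embryo on, fell by 2.86. The pancreatic factor pdx1 fell by 1.62 and the liver factor hnf4a by 2.62. The lipoprotein receptor vldlr fell by 2.71, and the apolipoprotein D gene apoda.2 by 7.10.

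Kidney genes rose in 26 of 44 cases and fell in 7 (median 1.31, but 0.17 with normexp and 0.02 with only probes above background throughout), with the podocyte gene podxl at least 142-fold and the tubule transporter slc12a3 at least 91.6-fold higher. Cilia and axoneme genes rose in 56 of 94 cases and fell in 14 (median 1.23, but 0.36 with normexp). The master factor of motile cilia, foxj1a, rose by 5.15 ± 0.15, and the axoneme genes spag6, daw1 and tekt1 were at least 61.6-fold, at least 39.3-fold and at least 10.6-fold higher. The kinesin kif3b fell by 2.88 and the axoneme gene cimap1b by 4.66.

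Ribosomal protein genes rose almost throughout. Of 82 cytosolic ribosomal protein genes 81 rose and 0 fell by at least 2-fold (median 2.93). The small subunit gene rps6 measured 7.85, 7.91 and 8.01 on the 24 h arrays, against 3.92, 4.06 and 3.90 on the 6 h arrays, and the stalk gene rplp0 measured 8.36, 8.43 and 8.57 on the 24 h arrays, against 4.75, 4.87 and 4.87 on the 6 h arrays. Both were above the 75th percentile at both times and higher on every 24 h array. Changes over the 46 large subunit genes ran from 1.29 (rpl12) to 4.62 (rpl5a). Those over 35 small subunit genes ran from -0.89 (rps8b, which is not in the list of 82) to 3.97 (rps6). The list's member below 2-fold, rpl7l1, singled out after its values were seen, rose by 0.96. Translation factors, too, rose in 35 of 62 cases and fell in 6 (median 1.34). The initiation factors eif1ad and eif2s1b rose by 4.28 ± 0.13 and 3.90 ± 0.07, and 10 of 11 subunits of initiation factor 3 rose by at least 2-fold. The elongation factor paralog eef1a1l3 was at least 127-fold lower. Aminoacyl-tRNA synthetases rose in 8 of 11 cases and fell by at least 2-fold in 0 (median 1.45), with tars1 at 2.21 ± 0.08, and mars1 changed by -0.83 ± 0.07.

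Mitochondrial and proteasome genes moved in the same direction. Of 91 respiratory chain genes 76 rose and 1 fell by at least 2-fold (median 2.08). The rise held for 15 of 15 genes of complex IV, 30 of 36 of complex I, 7 of 8 of complex III, 16 of 18 of the ATP synthase and 2 of 5 of complex II. The cytochrome oxidase gene cox4i1 measured 6.88, 6.73 and 6.86 on the 24 h arrays, against 4.06, 4.12 and 4.02 on the 6 h arrays, and the ATP synthase gene atp5f1b measured 7.48, 7.49 and 7.60 on the 24 h arrays, against 6.06, 6.09 and 6.06 on the 6 h arrays. Neither overlapped between the times. The exception was ndufs8b, which fell by 3.31. Mitochondrial ribosomal proteins rose in 37 of 65 cases and fell by at least 2-fold in 0 (median 1.41), mrpl53 by 4.37 ± 0.14 and mrpl12 by 1.88 ± 0.08. Of 47 proteasome genes 32 rose and 4 fell (median 1.74). The core subunits psma1 and psmb6 rose by 4.27 ± 0.09 and 4.07 ± 0.09. The falls were in psma6l, the immune-type subunits psmb9a and psmb12 and the activator psme2, at -2.38, -1.02, -2.09 and -1.66.

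Splicing, chromatin and nuclear pore genes had medians near that of all genes (0.11) by this scaling, but further below it by some others. Of 69 splicing factors and hnRNPs 14 (20.3%) rose and 13 (18.8%) fell by at least 2-fold, against 36.6% and 29.4% of all genes (median -0.08). Of 70 histones and chromatin proteins 21 (30%) rose and 19 (27.1%) fell (median -0.06). Of 14 nucleoporins 4 (28.6%) rose and 4 (28.6%) fell (median -0.18). With median scaling all 3 of these medians were above 0, and that of all genes was 0.38. With quantile normalization they were -0.59, -0.37 and -0.48, against -0.08 for all genes. In the authors' deposited table they were -0.43, -0.35 and -0.36, against -0.12 for all genes. With cyclic loess normalization, another way to scale arrays, they were -0.40, -0.14 and -0.26, against 0.20 for all genes. The small Sm proteins snrpg and snrpf of the spliceosome rose by 3.19 ± 0.09 and 2.83 ± 0.12, and snrpd3 fell by 2.08. The histone variant macroh2a2 rose by 4.60 ± 0.08, the chromatin protein hmgn3 by 4.36 ± 0.13, and the egg lamin lmnl3 fell by 5.86. The nuclear pore genes nup88, nup50 and nup107 changed by 0.01 ± 0.08, 0.04 ± 0.08 and 0.13 ± 0.07 and did not pass the test (adjusted p = 0.941, 0.626 and 0.147, limma). Of 43 genes of RNA polymerase II and its general factors 4 (9.3%) rose and 13 (30.2%) fell by at least 2-fold (median -0.39). The TATA-binding protein tbp fell by 2.65 and its egg relative tbpl2 by 5.90. The egg form of another general factor, gtf2a1l, fell by 4.22, where the polymerase subunit polr2eb rose by 2.05 ± 0.07. Over all genes, 1051 had a change whose 95% interval lay within 0.5 log2 of 0 on either side.

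Signalling genes other than Nodal and BMP were more often higher at 24 h. Of 66 genes of the Wnt, FGF, hedgehog and retinoic acid pathways 35 rose and 12 fell by at least 2-fold (median 1.33). That median was 0.38 with normexp and 0.27 over the 45 members with probes above background on all 6 arrays. The gastrulation ligand wnt11f2 measured -2.06, -2.24 and -2.14 on the 24 h arrays, against 1.78, 1.76 and 1.46 on the 6 h arrays, so that it fell by 3.81 on the log2 scale. The 3 arrays at 24 h were all lower than the 3 at 6 h. The ventrolateral ligand wnt8a fell by 6.44, wnt11, a paralog of wnt11f2, was at least 224-fold higher, and fgf8a and the retinoic acid hydroxylase cyp26a1 fell by 0.90 and 1.03. The receptor fgfr2 was at least 289-fold higher and the retinoic acid binding protein crabp2a at least 197-fold. Of 45 convertase and TGF-beta genes 25 (55.6%) rose and 11 (24.4%) fell by at least 2-fold (median 1.09). Their median was 0.41 with normexp and 0.33 with only probes above background on all 6 arrays. The convertase furina fell by 1.74, as did the signal transducer smad2 (-3.54) and the activin receptor acvr1ba (-3.61). The activin-binding follistatin fsta was at least 187-fold higher and the matrix protein tgfbi at least 545-fold. No probe (0) was named pcsk7, and its level is not analysed here.

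Solute carriers, which move small molecules across membranes, rose and fell in shares close to those of all genes. Of 251 solute carriers 94 (37.5%) rose and 83 (33.1%) fell by at least 2-fold, against 36.6% and 29.4% of all genes (median 0.04). That median was below 0 with quantile normalization, with normexp, in the authors' deposited table and with replicate 3 left out. It was also below 0 with only probes above background on all 6 arrays. The glutamate transporter slc1a3a of glia changed by 8.23 ± 0.12. The lactate transporter slc16a3b measured -0.79, -0.62 and -0.73 on the 24 h arrays, against 5.80, 5.80 and 5.87 on the 6 h arrays, a change of -6.53 ± 0.08, with every 24 h array below every 6 h array. Of 77 ion channel and receptor genes 40 rose and 20 fell (median 0.67). Their median was below 0 with normexp background correction and with only probes above background on all 6 arrays. The acetylcholine receptor subunits of muscle, chrna1 and chrnd, rose by 6.60 ± 0.09 and were at least 162-fold higher, while the potassium channel genes kcnc2 and kcnc3b were at least 31.9-fold and at least 8.12-fold lower.

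Stress, death and clock genes were mixed as well. Of 75 heat shock proteins and chaperones 32 (42.7%) rose and 12 (16%) fell by at least 2-fold (median 0.53). Their median was 0.13 with normexp background correction and 0.05 in the authors' deposited table. The muscle chaperone hsp90aa1.1 measured 6.29, 5.89 and 6.27 on the 24 h arrays, against -2.91, -2.99 and -2.92 on the 6 h arrays, a change of 9.09 ± 0.10, and the co-chaperone dnajb1b fell by 3.78. The ER chaperone hspa5 changed by -0.44 ± 0.08, and hsp70.3, the inducible form, by 0.53 ± 0.27 (adjusted p = 0.13, limma). Of 56 genes of the p53 pathway and cell death 20 (35.7%) rose and 14 (25%) fell (median 0.02). These shares were close to the 36.6% and 29.4% of all genes. The median was below 0 with quantile normalization, with normexp, with averaging over probes, in the authors' deposited table and with replicate 1 left out. It was also below 0 with only probes above background on all 6 arrays. The ubiquitin ligase gene mdm2 changed by -0.43 ± 0.12. Of 44 clock genes 17 (38.6%) rose and 19 (43.2%) fell, against 36.6% and 29.4% of all genes (median 0.17). The clock median was -0.55 with quantile normalization, -0.51 with normexp background correction, -0.10 with averaging over probes and -0.21 in the authors' deposited table. It was -1.1 with only probes above background on all 6 arrays. The cryptochrome cry1b and cry5, a photolyase of the same family, fell by 3.02 and 3.65 and the period genes per2 and per3 by 1.73 and 2.81, whereas per1b rose by 1.13 ± 0.11 and bhlhe40 and nr1d1 were at least 229-fold and at least 5.11-fold higher. The time of day of the collections is not stated in the labels, and its part in these values was not tested.

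Of the genes given with a bound, apoa2, crabp2a, eef1a1l3, fli1, hbae3, he1.2, ndr2, tnnt3a and vsx1 were above background on 1 of 3 arrays of their dimmer time and bmp7a, fabp1b.1, fabp2, fgfr2, isl1a, mdka, spi1b, stmn4 and wnt11 on 2 of 3, and the others on 0 of 3.

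Markers of each stage were checked against the labels. Of 49 marker genes chosen for the gastrula, for tissues at 24 h, for the egg and for germ cells, 46 were measured, and hbbe1.1, dct and buc had no named probe. Of 25 tissue markers at 24 h, 24 rose, against 47.5% of all genes. Among these, kdrl was called lower with normexp background correction. The remaining marker, tyr, fell by 0.26, but its change was -0.01 and did not pass the test with median scaling. Of 21 gastrula, egg and germ cell markers 20 fell, against 42.9% of all genes, and eve1 did not pass the test. A marker at background at either time was kept only through the arrays of the other time. The direction of its change was thus largely set by the filter. The motor neuron gene isl1a was at least 37.2-fold and the ventricular myosin gene listed as myh7 was at least 45.7-fold higher, while the egg coat gene zp3 fell by 4.76. Among the smaller changes was that of cdh5 of endothelium, given above.

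The same 24 h against 6 h comparison in embryos given PCSK7 and p53 morpholinos gave values from 6 other arrays. In those embryos each slide held a single time, so slide and time cannot be told apart there. Their scans were also read with another version of the extraction software than the control scans (per the file headers), so version and morpholino cannot be told apart. Of 8265 genes that changed by at least 2-fold in control embryos and had a value in the others, 98.8% had a change of the same sign in the PCSK7 plus p53 embryos, and 7204 (87.2%) were called at least 2-fold in the same direction. The sizes differed more than the directions: the difference of the time change between the morpholino groups passed the test in 6352 of 12518 genes (50.7%), of which 2824 had a more positive and 3528 a more negative change in PCSK7 plus p53 embryos. It was at least 2-fold in 1811 of them. Calls of at least 2-fold in opposite directions were made in 16 genes. Of the 6 of these with the largest difference, the segmentation clock gene her1 changed by -1.77 in PCSK7 plus p53 embryos and by 3.37 ± 0.34 in control embryos, and mespaa, which marks the forming somite boundary, changed by -1.79 and by 2.27 ± 0.10. The kinase prkcq changed by 3.28 in PCSK7 plus p53 embryos and by -1.73 ± 0.28 in control embryos. For ero1a, si:dkey-111e8.4 and zcchc24 the changes were -3.03, -1.98 and 3.33 in PCSK7 plus p53 embryos, while in control embryos ero1a was at least 1.23-fold higher (lower with normexp background correction), si:dkey-111e8.4 at least 2.01-fold higher, and the probes of zcchc24 disagreed.

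**Figure D5:**
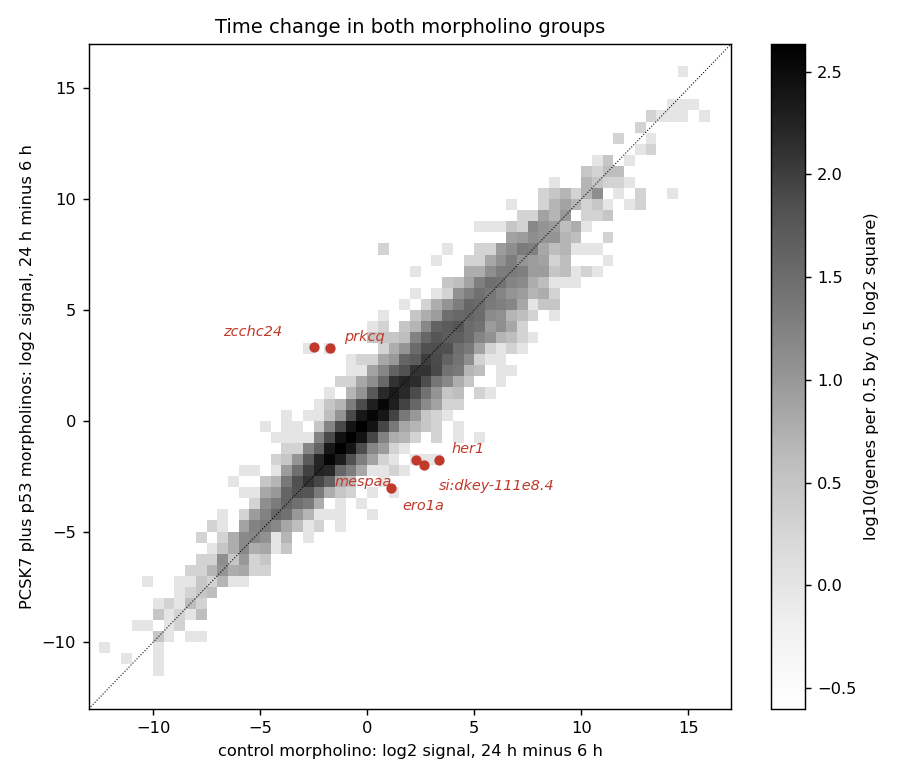
Number of genes (grey, on a log10 scale) by log2 change between 24 h and 6 h in PCSK7 plus p53 embryos (vertical axis) and in control embryos (horizontal axis), with the dotted line of equal change; red points are the 6 genes called in opposite directions with the largest difference. Most genes lie along the line, and the 6 named genes lie in the quadrants of opposite sign.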

How the data were processed

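RNA of whole embryos was hybridised to Agilent 1-colour arrays, and the authors deposited the scanner files of Agilent Feature Extraction 10.7.1 (per the submitters' processing notes), whose intensity values are spot brightness on a linear scale. The processed intensity used here is, per the file headers, already corrected for background by that software. The authors also deposited a table of processed intensity values for 19838 probes with the same median in every column (172.128); no source used here states its normalization.

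From the scanner files, log2 of each deposited intensity was taken and the 75th percentile over non-control probes of the array subtracted. Probes were kept where all 3 arrays of either time were well above background (35170 of 43603; 65 had no value on some control array). limma 3.58.1 in R 4.3.3 fitted time and slide on the 6 control arrays, with lmFit and eBayes and Benjamini-Hochberg adjustment over the kept probes. With 3 slides the residual degrees of freedom were 2, and 4.17 with those borrowed across probes. The number of arrays limits the precision. In the test of a different time change by morpholino, all 12 arrays were fitted with 1 mean per group.

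Of 33678 probes with a RefSeq accession 26854 were named through a table of the GRCz12tu assembly, giving 14016 genes. Of all 43603 probes 16749 stayed unnamed, with or without an accession, 15 of them because several genes matched. Array positions refer to older builds, and no coordinates are given. A gene is its brightest kept probe. Of 7161 genes with several kept probes, 516 (7.21%) had probes called in both directions.

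Slides pair the arrays: each control slide holds 1 array of each time, and the replicate number of the labels is the slide. Deviations from the group means correlated at 0.0142, 0.0087 and 0.0094 within slides and at -0.0164 to 0.0062 across slides.

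Named genes are the 15 largest rises and falls above background on all 6 arrays, the 10 largest bounds each way among genes above background on 0 of 3 arrays of the other time, preset anchors and the largest changes of 49 gene lists, 12 pairs of related genes, and the 6 largest opposite changes between morpholino groups; a few outside it are marked in the text, and some members are not reported here. The members, lists, patterns of subgroups and tests were chosen with earlier results of these data known. Alternatives covered the block, the samples fitted, background, scaling, the filter, the probe for a gene, the deposited table and each slide left out. Normexp background correction used median spot signals, since mean signals are not analysed here, and 7 local backgrounds over 10 times the array's median were set to that median because the fit failed without this. In simulated data of 35170 probes, 100 were changed by 2-fold and 100 by 4-fold. The test recovered 84% and 96% of these, with 6 false calls. The simulation held no slide effect and far fewer changed probes than the 90.1% that passed in the data. Its rates therefore do not describe the test on these arrays.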

Additional observations from a re-analysis of the deposited data

Results flagged for a closer look

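The change between the 2 times differed by morpholino group in 6352 genes, by a test of the difference itself over all 12 arrays (adjusted p under 0.05, limma). Of these, 1811 differed by at least 2-fold. Each slide of the PCSK7 plus p53 embryos held a single time, so slide and time cannot be told apart in those embryos, while control slides held both. The scans of the PCSK7 plus p53 embryos were read with another version of the extraction software than those of the control embryos, per the file headers, so version and morpholino cannot be told apart.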

How the results depend on the processing

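Counts of genes that rose, that fell, and that did either by at least 2-fold stayed within 1.5 times of 5945, 5373, 4581 and 3686 in all alternatives but 1. When only probes above background on all 6 arrays entered, 2768 genes rose by at least 2-fold. That choice removes by construction the genes that were at background at 6 h. Without the replicate block for the slide, 6016 genes rose and 5448 fell, with 4579 and 3686 by at least 2-fold, and no named gene reversed. Leaving out each slide in turn gave 5675 to 5794 rises and 5027 to 5248 falls, with 4557 to 4585 and 3673 to 3692 by at least 2-fold. The number of genes whose time change differed between morpholino groups was 4173 to 4812 with a replicate of every group left out, the lowest without replicate 2; these and 3 other alternatives for it, which gave 5701 to 6277, were chosen after seeing the data. The median change of all genes moved by -0.21 with quantile normalization, by 0.25 with median scaling and by -0.32 with normexp background correction. It moved by -0.25 in the authors' deposited table and by -0.34 with only probes above background throughout. Those 2 alternatives also held other sets of genes, 11831 and 10204 rather than 12521. Under normexp 4914 genes rose and 6008 fell. Of 307 named genes 283 kept direction and call in all alternatives that gave a value. Averaging over probes turned col11a1a (4.49), col4a5 (2.93), tpm1 (1.58) and zcchc24 (3.41) round by construction, since their probes disagree, and the authors' deposited table gave 8.81 for col11a1a and 9.16 for zcchc24. Normexp gave -0.59 for ero1a and -0.32 for kdrl, both dim at 6 h, and npm1a changed by -0.62 with quantile normalization and by -0.35 in the authors' deposited table; the cause was not tested.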

Other observations

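Families of transcription factors that the lists above do not treat as such were mostly higher at 24 h. Of 11 tested Pax genes 10 rose by at least 2-fold and 0 fell, and pax7a was the lowest of them with a change of 0.05. Of 8 Dlx genes 7 rose and 0 fell. Of 12 Tbx genes 8 rose and 3 fell, with tbx16 lowest. Sox genes rose in 13 of 21 cases and fell in 5, and the lowest was sox32, the endoderm gene of the gastrula. Fox genes rose in 24 of 47 cases and fell in 10, with the Nodal effector foxh1 lowest, and Klf genes rose in 11 of 19 cases and fell in 6. At 6 h, 7 of 11 Pax, 4 of 8 Dlx and 4 of 12 Tbx genes were above background on 0 of 3 arrays. The same held for 6 of 21 Sox, 11 of 47 Fox and 2 of 19 Klf genes. Such genes were kept through their 24 h arrays, so the direction of their change was largely set by the filter. All these families were picked by gene symbol after the data had been seen and were not tested as groups. Over all genes 36.6% rose and 29.4% fell by at least 2-fold.

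Structural families picked in the same way were mostly higher too, where 36.6% of all genes rose and 29.4% fell by at least 2-fold. Keratins, the intermediate filaments of epithelia, rose by at least 2-fold in 13 of 15 genes and fell in 0. Annexins, which bind membranes in the presence of calcium, rose in 13 of 16 genes. Tubulins rose in 13 of 15 and apolipoproteins of the A, B, C, E and M classes in 10 of 10. At 6 h, 3 of 15 keratins and 3 of 16 annexins were above background on 0 of 3 arrays. So were 2 of 15 tubulins and 3 of 10 apolipoproteins. The filter largely set the direction of change of such genes. Tudor domain genes of the tdrd series, most of which are in the germ plasm list above, fell in 6 of 6. The smallest fall was that of tdrd3 (-1.38), which is not in that list. Olfactory receptor genes, which serve a sense organ that is only forming at 24 h, rose in 4 of 14 genes and fell in 7. Of these 14, 10 were above background on all 3 arrays at 6 h and 8 on all 3 at 24 h. Receptor genes above background on all 3 arrays of a single time were kept through that time. The direction of their change was thus largely set by the filter.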
